A study of Mus musculus with 2 samples.

Results

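Small leucine-rich proteoglycans are secreted proteins of the extracellular matrix built around a curved run of leucine-rich repeats, most of them carrying chondroitin, dermatan or keratan sulphate chains. They bind fibrillar collagens and set how fibrils grow and pack, and several of them also hold growth factors of the TGF-beta family or engage cell surface receptors once released. In connective tissue, fat stroma included, they are made mainly by fibroblast-like cells. The genes described here are 10 members of the family, Dcn, Bgn and Aspn of class I, Fmod, Lum, Prelp, Kera and Omd of class II, Ogn of class III and Podn of class V. They were taken by symbol from a gene table of 54532 lines, and all 10 were found on 1 line each.

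The material was labelled as adipose of mice aged 3 to 4 weeks, with 1 library from wild type (WT) mice and 1 from mice with a Trappc9 knockout (KO). Trappc9 is part of a TRAPP complex, which tethers transport vesicles; the sources used here do not give the strain or how the knockout was made. The design text describes 3 mice of each genotype whose fat pads were digested to a cell pellet, the titles name stem cells from adipose tissue, and the extraction label names frozen pads, so whether cells or whole pads were sequenced, and whether mice were pooled, is not settled by these sources. No other allele or agent is named for either group. A single library per genotype allows no replicate check, and no p-value is given. Intervals below cover counting error only, and in such bulk RNA fewer cells of a type cannot be told apart from less RNA per cell.

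The libraries held 13705193 (WT) and 14783728 (KO) fragments, recovered from the deposited FPKM values (fragments per kilobase of gene length, scaled for library size). Trappc9 itself was higher, not lower, under the KO label, at 9.94 FPKM in WT and 12.6 FPKM in KO. Its ratio was 1.27 (counting interval 1.17 to 1.37). The gene's total thus gives no support to that label. Since how the knockout was made is not given, the total cannot decide whether the label holds. WT and KO below therefore name the libraries by their labels, and every direction rests on those labels. Of 8 markers of mature fat cells, 7 averaged 1 FPKM or more. Adipoq, which defines these cells, was at 2.30 FPKM in WT and 0.506 FPKM in KO and Lep had 3 and 4 fragments, while the lipid carrier Fabp4 was at 25.1 FPKM in WT and 27.0 FPKM in KO and the lipase Pnpla2 at 27.4 FPKM in WT and 31.0 FPKM in KO. Genital tract epithelium took 2.38% (WT) and 2.86% (KO) of all fragments in a list of 10 genes led by Gpx5. Of 20 fibroblast markers, all 20 averaged 1 FPKM or more, with Pdgfra, a stromal receptor, at 34.2 FPKM in WT and 30.7 FPKM in KO.

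Most of the family lies in compact gene clusters, which are shown first because neighbouring members stood at very different levels. On chromosome 13 (mm10), 4 family genes follow each other on the plus strand within 119.7 kb, namely Ecm2, Aspn (49544443 to 49567565), Omd (49582462 to 49592822) and Ogn (49608046 to 49624501). All of them sit inside the span of Cenpp, a centromere protein gene on the opposite strand, but share 7 exon bases with it at Aspn and 0 at Omd and Ogn. On chromosome 10, Dcn (97479609 to 97518143), Lum (97565128 to 97572703), Kera (97606879 to 97613692) and Epyc span 202.8 kb on the plus strand. On chromosome 1, Optc and Prelp (133910304 to 133921414) lie 2.30 kb apart on the minus strand, with Fmod (134037254 to 134048277) on the plus strand 115.8 kb further on. No other protein-coding gene lies wholly within any of the gaps between them. Bgn (chromosome X, 73483602 to 73495933) and Podn (chromosome 4, 108014791 to 108096445) stand alone.

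The 250 bases before the RefSeq transcription start (GRCm38.p6) are printed for the members of the chromosome 13 and chromosome 1 clusters. Within each cluster, genes share a neighbourhood but not a level. This holds for the chromosome 10 cluster too, which is not printed because Dcn and Lum had no promoter entry. Capitals mark matches, on either strand, to any of 7 motifs: TATAAA of the TATA box, CCAAT of the CCAAT box, GGGCGG of the Sp1 site, GGAATG of the TEAD site, TGANTCA of the AP-1 site, CAGACA of the SMAD site, and the CArG box by its name. The windows are chr13:49607765-49608014, chr13:49544193-49544442 and chr13:49582212-49582461 on the plus strand for Ogn, Aspn and Omd, chr1:134037004-134037253 on the plus strand for Fmod, and chr1:133921402-133921651 on the minus strand for Prelp.
Ogn: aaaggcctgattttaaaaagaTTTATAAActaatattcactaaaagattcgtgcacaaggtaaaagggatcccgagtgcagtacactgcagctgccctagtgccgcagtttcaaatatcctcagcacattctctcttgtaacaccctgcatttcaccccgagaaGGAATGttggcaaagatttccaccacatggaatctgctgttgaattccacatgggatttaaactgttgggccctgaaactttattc
Aspn: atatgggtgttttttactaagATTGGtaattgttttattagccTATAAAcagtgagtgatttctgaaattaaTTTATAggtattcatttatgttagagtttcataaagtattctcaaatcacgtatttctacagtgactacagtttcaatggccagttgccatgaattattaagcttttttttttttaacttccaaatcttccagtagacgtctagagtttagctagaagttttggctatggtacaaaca
Omd: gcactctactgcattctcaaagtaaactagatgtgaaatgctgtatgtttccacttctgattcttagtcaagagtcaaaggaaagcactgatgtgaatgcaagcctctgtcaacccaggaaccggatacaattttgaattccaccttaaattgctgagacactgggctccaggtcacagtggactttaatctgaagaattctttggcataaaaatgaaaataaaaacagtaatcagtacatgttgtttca
Fmod: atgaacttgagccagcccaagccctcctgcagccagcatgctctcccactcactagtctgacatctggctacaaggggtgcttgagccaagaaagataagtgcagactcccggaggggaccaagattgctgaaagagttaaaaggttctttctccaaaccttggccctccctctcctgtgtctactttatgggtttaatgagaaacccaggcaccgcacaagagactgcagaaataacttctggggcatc
Prelp: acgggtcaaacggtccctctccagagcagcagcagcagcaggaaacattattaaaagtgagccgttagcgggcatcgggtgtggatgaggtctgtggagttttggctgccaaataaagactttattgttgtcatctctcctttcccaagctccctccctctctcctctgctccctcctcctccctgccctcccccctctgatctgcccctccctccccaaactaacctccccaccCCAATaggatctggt

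Of the 10 members, 8, all but Dcn and Lum, had an entry in the promoter table, with 2 starts for Podn. Their base composition varied widely: the Aspn window had 30.0% G and C, Omd 38.4% and Ogn 42.0%, against 64.4% for Bgn and 78.0% and 64.0% for the Podn starts, with a median of 52.4% over all 32851 promoters. TATAAA matched in the Ogn and Aspn windows, in each case on both strands, 229 and 227 bases before the start in Ogn and 207 and 178 bases before it in Aspn, and in 12.4% of all promoters. The matches in Ogn overlap each other. GGGCGG, the core of the Sp1 site, matched 3 times in Bgn and 2 times in 1 Podn window and in 32.7% of all promoters. The Bgn matches at 10 and 6 bases before the start overlap each other. GGAATG, the core of the TEAD site, matched in Ogn and in 12.6% of all promoters. CCAAT matched in Aspn, Kera and Prelp and in 33.8% of all promoters. The Kera and Podn windows lie inside the gene spans given above, since their RefSeq starts are downstream of the annotated gene starts. The Prelp window overlaps the edge of its span. The Omd and Fmod windows held none of the 7 motifs, and none of the 9 windows held the AP-1 motif, the SMAD motif or a CArG box, which were found in 6.75%, 17.1% and 1.47% of all promoters.

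The levels of the 10 genes spanned from no fragment to over 100 FPKM, and their order was almost the same in both libraries. Dcn, encoding decorin, which binds collagen fibrils and TGF-beta, was the most abundant at 130 FPKM in WT and 122 FPKM in KO, from 10743 and 10210 fragments. It made up 37.6% (WT) and 38.3% (KO) of the FPKM summed over the 10 genes and ranked at percentile 97.6 by mean level among the 13084 protein-coding genes averaging 1 FPKM or more. Next came 4 genes between 29 and 53 FPKM. Bgn, encoding biglycan, decorin's closest relative, was at 52.9 FPKM in WT and 48.5 FPKM in KO. Ogn, encoding osteoglycin, also called mimecan, was at 51.1 FPKM in WT and 50.1 FPKM in KO. The order of Bgn and Ogn was reversed between the libraries, but their exact 95% Poisson intervals overlapped in each (51.4 to 54.5 against 48.8 to 53.5 FPKM in WT). Fmod, encoding fibromodulin, a collagen-binding keratan sulphate proteoglycan, followed at 43.8 FPKM in WT and 40.2 FPKM in KO. Lum, encoding lumican, a relative of fibromodulin that binds the same region of collagen, was at 38.2 FPKM in WT and 29.2 FPKM in KO.

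**Figure D1:**
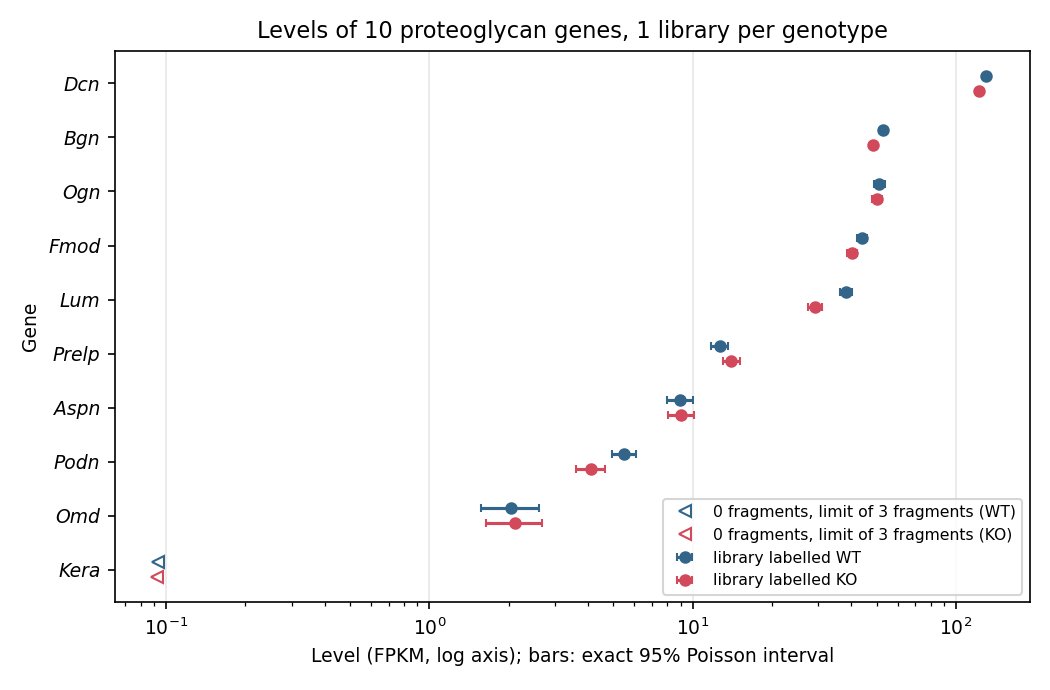
Level of each gene in FPKM on a log axis, for the library labelled WT (blue) and the library labelled KO (red); points are single libraries, bars are exact 95% Poisson intervals of the fragment counts, and open triangles mark the value of 3 fragments for Kera, which had 0. Dcn stands apart at 130 and 122 FPKM, 4 genes lie between 29 and 53 FPKM, and the intervals of the libraries overlap for Ogn, Fmod, Prelp, Aspn and Omd.

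The remaining members were lower by a clear step. Prelp, encoding a basement membrane anchor that ties matrix to perlecan, was at 12.7 FPKM in WT and 14.0 FPKM in KO. Aspn, encoding asporin, a class I protein with an aspartate-rich start and an inhibitor of TGF-beta, was at 8.94 FPKM in WT and 9.03 FPKM in KO. Podn, encoding podocan, was at 5.49 FPKM in WT and 4.09 FPKM in KO. Omd, encoding osteomodulin of bone matrix, was at 2.04 FPKM in WT and 2.11 FPKM in KO, from 65 and 68 fragments. Kera, encoding keratocan, which is known from the corneal stroma, had 0 fragments in both libraries, where 3 fragments would be 0.093 FPKM in WT and 0.092 FPKM in KO and the exact 95% Poisson interval reaches 0.114 and 0.113 FPKM. In each library every pair of neighbours in this order had intervals that did not overlap, apart from Bgn and Ogn.

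These levels depend on the length used. The deposited lengths equalled the union of all annotated exons in GENCODE M21 for each of the 10 genes. For Dcn that union, over 5 transcripts of which 3 are coding, is 5838 bases, while its longest coding transcript has 1758 bases. For Bgn the lengths are 6099 and 2419 bases. Divided by the longest coding transcript instead, Dcn would be at 431 (WT) and 406 (KO) and Bgn at 133 (WT) and 122 (KO) fragments per kilobase on the same scale, whereas Lum and Ogn, with 1 transcript each, were unchanged. By mean level over both libraries, the ranks of all 10 genes were the same on this scale. Within KO the order of Bgn and Ogn did depend on it. Bgn was below Ogn by the deposited length but above it, at 122 against 50.1, by the longest coding transcript. The ratio between libraries does not depend on length.

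Levels within a cluster were far from uniform. On chromosome 13, Ogn stood at 51.1 FPKM in WT while Omd, 15.2 kb before it, stood at 2.04 FPKM, with Aspn at 8.94 FPKM and Ecm2, a class I relative outside the set, at 4.02 FPKM in WT and 3.07 FPKM in KO. On chromosome 10, Dcn and Lum were abundant, Kera, 34.2 kb after Lum, had 0 fragments, and Epyc, encoding epiphycan of cartilage, was at 1.30 FPKM in WT and 1.01 FPKM in KO. On chromosome 1, Fmod was at 43.8 FPKM, Prelp at 12.7 FPKM and Optc, encoding opticin of the eye, at 2.82 FPKM in WT and 3.48 FPKM in KO. The order of levels within each of the 3 clusters was the same in the library labelled KO.

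**Figure D2:**
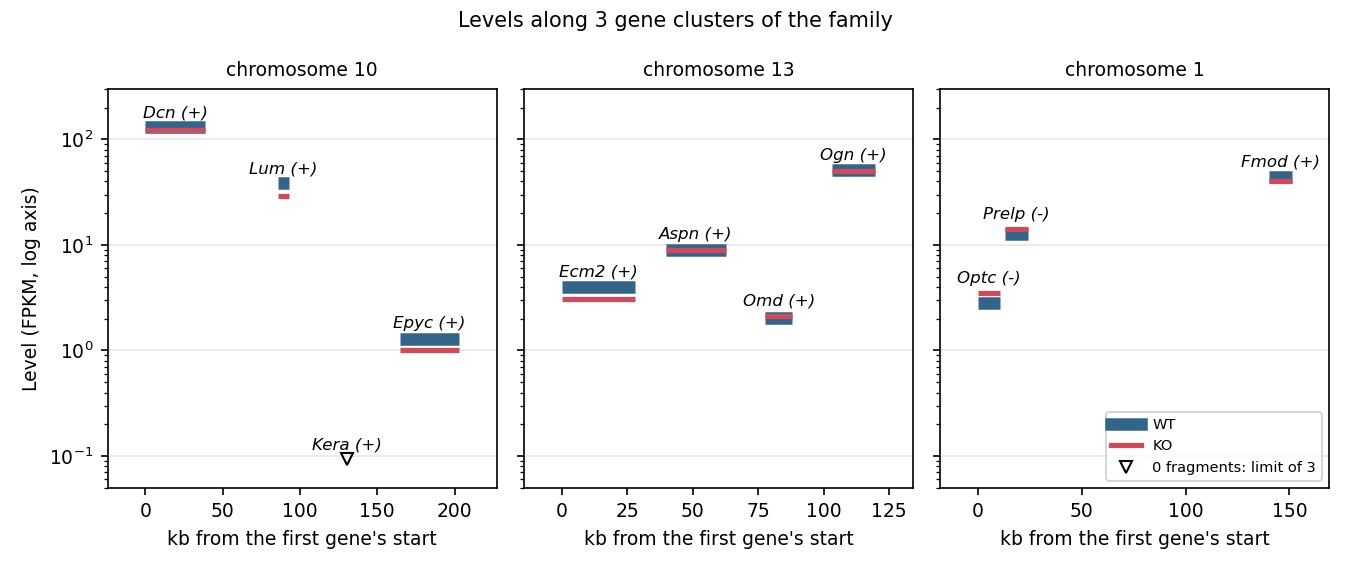
Level in FPKM on a log axis against distance in kb from the start of the first gene, in 3 clusters; each segment spans 1 gene in the library labelled WT (blue, thick) or KO (red, thin), signs give the strand, and the open triangle marks the limit of 3 fragments for Kera. Adjacent genes differ by large steps, such as Omd at 2.04 FPKM beside Ogn at 51.1 FPKM in WT.

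Between the libraries the 10 genes differed little. The log2 ratio is that of KO + 1 over WT + 1 in FPKM, which understates low genes, and each plain ratio of FPKM has an exact 95% Clopper-Pearson counting interval. Of the 9 members averaging 1 FPKM or more, 5 were lower in the library labelled KO beyond counting error, meaning that the interval excluded no change, where 17.6% of all 13084 protein-coding genes at that level were lower. None of the 9 was higher beyond counting error, where 24.6% of all genes were. The interval narrows with depth, so the 6 members averaging 10 FPKM or more were also set against the 5179 genes at that level: 4 were lower and 0 higher, against 16.2% and 35.6% of those genes. No member reached 1.5-fold in either direction, as 2.11% of genes did downwards and 2.79% upwards, and none reached 2-fold (0.29% and 0.948%). The median log2 ratio of the 9 members was −0.09, beside 0.02 over all genes, of which the middle 90% ran from −0.41 to 0.44.

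Among the 10 genes, the largest differences were in Podn and Lum. The FPKM ratio of Podn, from 332 fragments in WT and 250 in KO, was 0.746 (counting interval 0.630 to 0.881), a log2 ratio of −0.35. The ratio of Lum, from 1325 and 1024 fragments, was 0.765 (0.705 to 0.831), a log2 ratio of −0.37. Lum was thus lower by 23.5% and Podn by 25.4%, whereas the other 3 genes that were lower beyond counting error differed by 5.89% to 8.43%. The ratio was 0.916 (0.878 to 0.955) for Bgn, 0.917 (0.861 to 0.976) for Fmod and 0.941 (0.916 to 0.967) for Dcn.

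In the remaining 4 detected members the interval included no change. Ogn had a ratio of 0.980 (0.918 to 1.05) and Aspn of 1.01 (0.858 to 1.19). Omd had a ratio of 1.04, and with so few fragments its interval of 0.726 to 1.48 leaves a wide range. Prelp had the highest ratio, 1.11 (0.994 to 1.23), a log2 ratio of 0.14; rescaled to TPM (equal sums per library) it was −0.05. The signs of Aspn and Omd also turned negative under each of the 3 rescalings tried, without passing counting error.

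**Figure D3:**
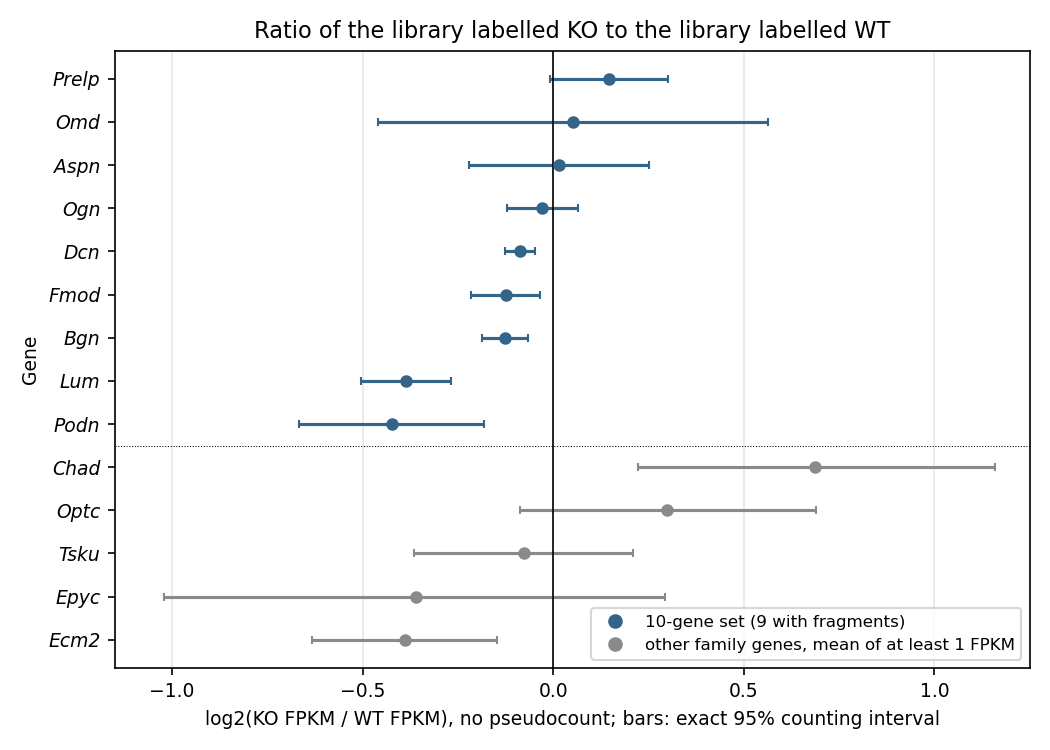
Log2 of the FPKM ratio of the library labelled KO to the library labelled WT, without pseudocount, with exact 95% counting intervals, for the 9 detected members (blue) and 5 other family genes averaging 1 FPKM or more (grey). Podn and Lum lie farthest below 0 in the set, at ratios of 0.746 and 0.765, and the intervals of Ogn, Aspn, Omd and Prelp cross 0.

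The members were also compared with one another by the quotient of their ratios, in 36 pairs, with exact conditional intervals widened so that all 36 hold together at 95%. In 7 pairs the interval excluded 1, and each of these involved Lum or Prelp. Relative to Lum, the KO over WT ratio was 1.23 times as high for Dcn (1.07 to 1.42), 1.20 times for Bgn (1.03 to 1.39), 1.20 times for Fmod (1.01 to 1.42), 1.28 times for Ogn (1.08 to 1.52) and 1.45 times for Prelp (1.16 to 1.80). Prelp also stood apart from Bgn, at 1.21 times (1.00 to 1.46, the lower bound just above 1), and from Podn, at 1.48 times (1.07 to 2.05). Lum therefore differed from Dcn, its neighbour on chromosome 10, and from Fmod, its class II relative. For Bgn and Fmod, of different classes, the quotient was 1.00 (0.885 to 1.13), and for Dcn over Bgn it was 1.03 (0.947 to 1.12).

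Summed over the 10 genes, the family took 0.160% of all fragments in WT (exact binomial interval 0.158% to 0.162%) and 0.139% in KO (0.137% to 0.141%). The summed FPKM was 345 in WT and 320 in KO. By class, the sum of class I was 192 FPKM in WT and 180 FPKM in KO, and that of class II 96.7 FPKM in WT and 85.5 FPKM in KO, of which Lum accounts for the larger part of the difference. In composition the libraries were close: Bgn held 15.3% and 15.2% of the summed FPKM, Ogn 14.8% and 15.7%, Fmod 12.7% and 12.6%, and Lum 11.1% and 9.15%.

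The 8 other family genes were low. Of the 5 averaging 1 FPKM or more, 1 was lower and 1 higher beyond counting error, against 17.6% and 24.6% of all measured genes. Their median log2 ratio was −0.06. Ecm2, beside Aspn, had a ratio of 0.763 (0.644 to 0.903). Chad, encoding chondroadherin, a cartilage and bone protein that binds collagen and integrins, was at 2.69 FPKM in WT and 4.33 FPKM in KO, a ratio of 1.61 (1.17 to 2.23) and the highest in the family among genes of that level. Tsku, encoding the secreted signalling modulator tsukushi, was at 4.81 FPKM in WT and 4.56 FPKM in KO. Chadl was at 0.859 FPKM in WT and 0.559 FPKM in KO, and its exons share 1023 bases with L3mbtl2 on the opposite strand. Nyx had 14 and 10 fragments and Podnl1 had 4 and 12.

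By list median, the collagens that these proteins bind differed more than the proteoglycans did. Podn and Lum, at ratios of 0.746 and 0.765, lay within the range of the measured collagens. They were below Col6a3 (0.770) and Col12a1 (0.786) and above the others. Of 14 fibrillar, fibril-associated and microfibrillar collagen genes, 12 averaged 1 FPKM or more. All 12 were lower in the library labelled KO beyond counting error, against 17.6% of all measured genes. Their median log2 ratio was −0.48, with a range from −0.66 to −0.31. Col3a1, the chain of collagen III, was at 481 FPKM in WT and 312 FPKM in KO. Col12a1, a fibril-associated collagen and the least different of the 12, was at 10.0 FPKM in WT and 7.88 FPKM in KO. The ratio of Dcn was above that of each of the 12 collagens, by 1.20 times (1.12 to 1.28) for Col12a1 up to 1.73 times (1.53 to 1.96) for Col11a1, named after its value was seen. Lum was closer to the collagens: its ratio exceeded that of 4 of the 12 beyond counting error, among them Col3a1 (1.18 times, 1.08 to 1.28), and for Col1a1 the quotient was 1.08 (0.990 to 1.17).

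Summed over each list, the proteoglycan set stood at 20.3% of the collagen FPKM in WT and 27.0% in KO, and the quotient of the fragment ratios was 1.33 (1.31 to 1.36). Dcn alone stood at 24.5% of the level of Col1a1, the main chain of collagen I, in WT and at 32.4% in KO, while Lum stood at 7.20% and 7.75%. Since both quantities come from the same library, this quotient does not depend on the scaling between libraries. It has the length limit given above for Dcn, which is the same in both libraries.

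Bmp1, the measured genes of its enhancers and most cross-linking genes were lower, while genes that build the sugar chains showed no common direction. The propeptide proteases cleave several family precursors and procollagens, and their list also holds enhancers, which are not proteases. In it 3 of 5 genes averaged 1 FPKM or more and all 3 were lower beyond counting error. Over all measured genes 17.6% were lower, the share to set beside each count in this paragraph. Bmp1, the only measured protease of the list, was at 16.3 FPKM in WT and 11.0 FPKM in KO. Pcolce, an enhancer, was at 42.1 FPKM in WT and 27.8 FPKM in KO. Lysyl oxidases and hydroxylases, which form collagen cross-links, were lower in 7 of 8 cases (median −0.42), with Loxl1 at 28.2 FPKM in WT and 17.8 FPKM in KO, and Plod1 at 11.5 FPKM in WT and 10.2 FPKM in KO. Metalloproteinases known to cleave family members were lower in 5 of 5 measured cases (median −0.39). Adamts4, an aggrecanase, was at 16.1 FPKM in WT and 9.45 FPKM in KO, and Mmp2, a gelatinase, at 39.1 FPKM in WT and 24.7 FPKM in KO.

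Of 18 measured enzymes that start, extend, epimerise or sulphate chondroitin and dermatan chains, 4 were lower and 3 higher beyond counting error. Their median log2 ratio was 0.02. Over all measured genes 17.6% were lower and 24.6% higher, the shares to set beside these counts and those for keratan sulphate below. B3gat3, which completes the linkage region, was at 25.8 FPKM in WT and 30.1 FPKM in KO. Chpf, a chondroitin polymerising factor, was at 28.0 FPKM in WT and 24.3 FPKM in KO. The lowest ratio of the list was that of Chst14, the dermatan sulphotransferase, at 5.54 FPKM in WT and 3.01 FPKM in KO (log2 −0.71), from 164 and 90 fragments; it was named after its value was seen. Of 6 measured enzymes of keratan sulphate chains, which Fmod, Lum and Omd can carry, 2 were lower and 2 higher, with B4galt4 at 24.5 FPKM in WT and 28.5 FPKM in KO. Among genes for tyrosine sulphation, a modification of the amino-terminal ends of Fmod, Lum and Omd, Tpst1 was at 18.5 FPKM in WT and 13.1 FPKM in KO and Tpst2 at 171 FPKM in WT and 169 FPKM in KO.

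Of 10 genes of the TGF-beta group, 6 were lower and 0 higher beyond counting error (median −0.14). For this list, the receptors and the other proteoglycans below, the shares over all measured genes were 17.6% lower and 24.6% higher. The lowest ratios of the TGF-beta group were 0.706 (0.600 to 0.829) for Tgfb2, named after its value was seen, and 0.734 (0.644 to 0.836) for Tgfb3. The highest was 1.02 (0.980 to 1.06) for Ltbp3, a latency protein. Tgfb2 was at 4.50 FPKM in WT and 3.17 FPKM in KO, Tgfb3 at 11.4 FPKM in WT and 8.39 FPKM in KO, and Ltbp3 at 76.7 FPKM in WT and 78.0 FPKM in KO. Of 9 measured receptors that decorin or biglycan are known to engage, 3 were lower and 2 higher (median 0.00). Lrp1, an endocytic receptor for decorin, was at 29.6 FPKM in WT and 25.8 FPKM in KO, and Cd14, a co-receptor of biglycan signalling, at 23.8 FPKM in WT and 27.1 FPKM in KO. Proteoglycans of other families split by gene: of 15 measured, 8 were lower and 5 higher (median −0.17), with the cell surface glypican Gpc3 at 54.6 FPKM in WT and 36.1 FPKM in KO and the syndecan Sdc4 at 27.1 FPKM in WT and 34.1 FPKM in KO.

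**Figure D4:**
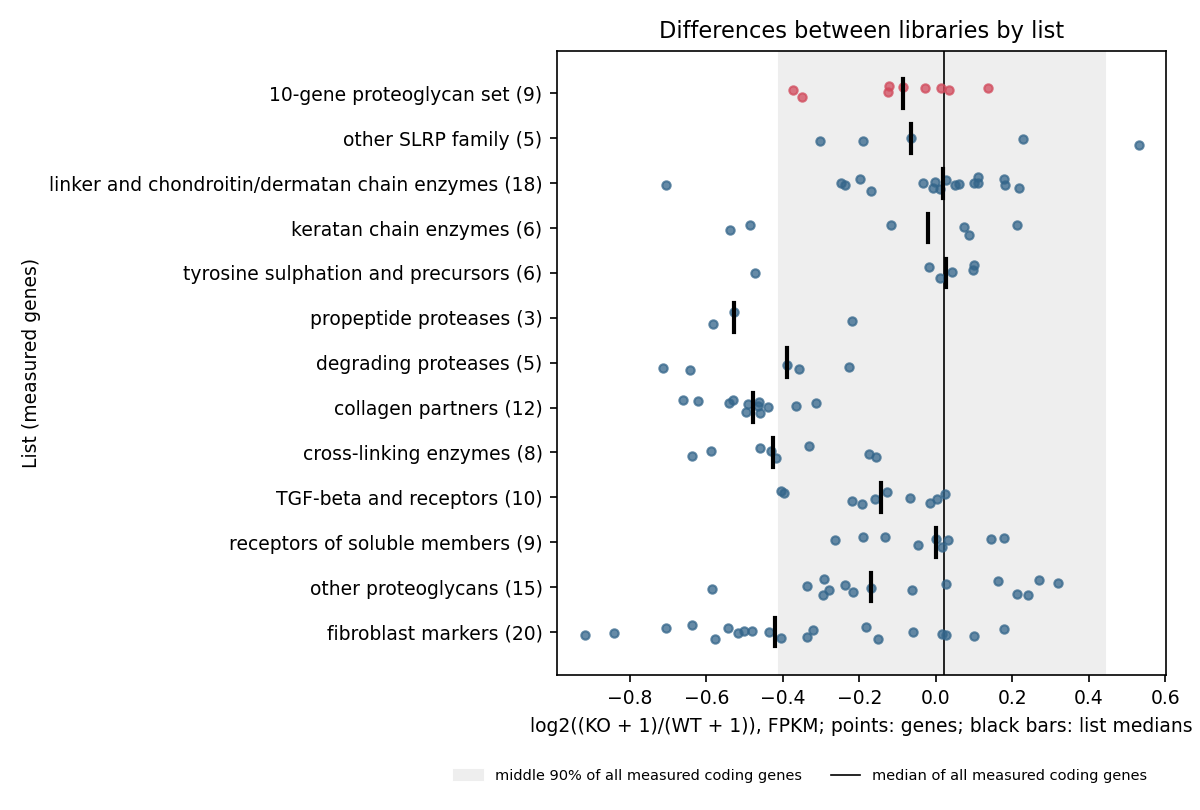
Log2((KO + 1)/(WT + 1)) of each gene averaging 1 FPKM or more, by list, with the number of measured genes in brackets; black bars are list medians, the grey band is the middle 90% of all measured protein-coding genes and the thin line their median. The proteoglycan set (red) has a median of −0.09, and the collagen list one of −0.48.

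Markers of other cells, and of the fibroblasts that make the family, also differed. The shares to set beside the counts below are 17.6% lower and 24.6% higher over all measured genes. Of 20 fibroblast markers, with collagens and the 10 members left out, 16 were lower and 1 higher in the library labelled KO beyond counting error (median −0.42), and their summed level was 1967 FPKM in WT and 1603 FPKM in KO. Cd34, a surface protein of stromal progenitors, was at 52.6 FPKM in WT and 27.4 FPKM in KO, Fbln2, a matrix protein, at 29.5 FPKM in WT and 16.0 FPKM in KO, and Dpp4 at 18.9 FPKM in WT and 21.5 FPKM in KO. Of 10 smooth muscle and pericyte markers, 4 were lower and 5 higher (median 0.12), and their sum was 951 FPKM in WT and 1191 FPKM in KO. Actg2, an actin of visceral smooth muscle, accounts for most of that, at 259 FPKM in WT and 498 FPKM in KO. Genital tract epithelium had 2 genes lower and 8 higher of 10, with a median of 0.29. All 10 averaged 10 FPKM or more, a level at which 16.2% of genes were lower and 35.6% higher. Of the 10, 4 were at least 2-fold higher, where 0.948% of all genes were. These 4 are genes of epididymal secreted proteins: Lcn9 was at 646 FPKM in WT and 2154 FPKM in KO, Rnase9 at 197 FPKM in WT and 494 FPKM in KO, Cst8 at 292 FPKM in WT and 617 FPKM in KO, and Lcn5 at 1284 FPKM in WT and 2667 FPKM in KO. The general epithelial genes of the list differed less, with Epcam at 226 FPKM in WT and 216 FPKM in KO and Krt18 at 230 FPKM in WT and 255 FPKM in KO. So did the epididymal genes Gpx5, at 10039 FPKM in WT and 11686 FPKM in KO, and Lcn8, at 3719 FPKM in WT and 4750 FPKM in KO. Cst8, Lcn5, Krt18 and Lcn8 were named after their values were seen. Of 12 skeleton and tendon markers 5 were measured, of which 0 were lower and 1 was higher. The higher gene was Runx2, at 5.54 FPKM in WT and 8.07 FPKM in KO. Sox9 was at 28.7 FPKM in WT and 27.1 FPKM in KO, and Scx at 12.3 FPKM in WT and 11.8 FPKM in KO. Bglap and Ibsp, which define bone-forming cells, had 0 fragments in both libraries. Among the other lists, 4 genes were lower and 2 higher of 6 for mesothelium (median −0.52), 1 lower and 4 higher of 6 for endothelium (0.18), 2 lower and 0 higher of 7 measured for macrophages and leukocytes (−0.05), and 2 lower and 2 higher of 7 measured for mature adipocytes (0.04). Loxl1 stands in both the fibroblast and the cross-linking list, and Kdr in both the endothelial and the receptor list. The part of these cell types in the levels of the 10 genes was not tested.

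For Dcn, the most abundant member, the 5 protein-coding genes nearest in level and ratio, by distance in log2(FPKM + 1) over the 2 libraries, were Rhob, Pfn1, Srd5a2, Slc25a5 and Pcbp1. Rhob was at 130 FPKM in WT and 121 FPKM in KO. With 2 libraries this is a likeness of 2 values only.

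Shared sequence was searched only in the longest coding transcript of each member, whereas the deposited lengths cover all annotated exons. For Dcn this transcript has 1758 of 5838 bases and for Bgn 2419 of 6099. Exons outside it were not searched, so the search cannot show how far shared sequence affects these values. Of the 10 longest coding transcripts, 6 had no stretch of 50 bases in common with a transcript of another gene in GENCODE M21. Prelp shared 8.58% of its stretches with 1 gene, Gm15851, an antisense transcript that had 5 fragments in WT and 1 in KO. Omd shared 4.77% of its stretches and Bgn and Podn under 1% each with transcripts of many genes, and Bgn and Podn were the only pair of members with a stretch in common. The sources used here do not state whether fragments were counted by strand. Podn shares no exon base with Scp2, which overlaps its span on the same strand.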

How the data were processed

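RNA of 1 library per genotype was sequenced after preparation with the Illumina TruSeq RNA kit, per the labels' protocols. The authors deposited 1 FPKM value per gene and library with the gene length. The submitters' processing notes name HISAT2 2.0.5 with mm10 and hg38 as builds, and the sources used here name no counting program. Fragments were recovered from the deposited FPKM and lengths, and 100% of nonzero values came out whole to 0.01 of a fragment. The denominators of the deposited FPKM differed by 1.01 (KO over WT) and the totals by 1.08, so the values already carry a scaling between libraries, and none was added.

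Python 3.11.15 with scipy 1.17.1 gave exact 95% intervals: Poisson for levels, Clopper-Pearson for ratios and shares, conditional for quotients of ratios. No molecular identifiers are described, so intervals and the limit of 3 fragments cover counting error only. A gene was measured if it averaged 1 FPKM or more. The code was tested on simulated counts. The members, the 19 other gene lists and the rules were chosen with earlier results of these data known. All members and other family genes were named, and of each list some of the 2 highest and 2 lowest ratios among genes of at least 5 FPKM on average, beside defining markers (Adipoq, Lep, Gpx5, Pdgfra, Bglap, Ibsp) and Col1a1, named outside that rule. Where a symbol stood on several lines the one with the higher mean was used. Alternatives were the pseudocount, 3 rescalings, the filter and the length. Promoters are from RefSeq.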

Additional observations from a re-analysis of the deposited data

How the results depend on the processing

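The counts of members lower (5) and higher (0) beyond counting error stayed within 1.5 times under the settings tried. None of the pseudocounts, rescalings or filters made a member 1.5-fold lower on the log2 scale with a pseudocount. After rescaling to TPM, Lum was at −0.57 and Podn at −0.52 on that scale, which understates low genes. Plain ratios were not counted by fold after rescaling. Rescaling moved the median log2 ratio of the members with that of all genes: it was −0.29 after rescaling to TPM, −0.18 when scaled by total fragments and −0.20 without the 50 most abundant genes, where the median of all genes moved by −0.17, −0.08 and −0.10. Relative to those shifts, an alternative chosen after seeing the data, the 9 ratios kept their direction and their side of counting error. Ogn became lower beyond counting error under the 3 rescalings (−0.23, −0.12 and −0.14). With protein-coding genes other than the 50 most abundant as the denominator, the share of the members was 0.183% in WT and 0.163% in KO. Without division by length, 8 of 10 members kept their rank by mean level over both libraries, and Fmod and Ogn changed places. No paired analysis was possible because there is 1 library per genotype, and no library could be left out. Depth limits Omd most, and for Kera no difference was detectable at this depth.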
